A study of Homo sapiens with 9 samples.

Results

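The pregnane X receptor (PXR, gene NR1I2), the constitutive androstane receptor (CAR, gene NR1I3), the 4 CYP3A enzymes and 3 further genes, POR, TSKU and FKBP5, were followed in HepG2 cells exposed to tris(2-butoxyethyl) phosphate (TBOEP). These 9 genes were taken by name from 57773 annotated features, and all 9 had enough reads to be among the 12901 genes tested. They were chosen with earlier results of these data known, so the number that passed is no test of the family. HepG2 is an established human hepatocellular carcinoma line that keeps many hepatocyte functions but is known for low levels of drug-metabolising enzymes. TBOEP is a phosphate ester added to plastics and floor finishes, as a plasticiser and to slow burning. There were 3 control cultures in 0.1% DMSO, 3 cultures at 2.5 µM TBOEP and 3 at 125 µM TBOEP, with the same 0.1% DMSO in every group and 72 h of exposure. Each replicate came from its own seeding, treatment and RNA isolation, and the labels give both concentrations as free of cytotoxicity.

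PXR and CAR are nuclear receptors that sense foreign chemicals and steroids in the liver. They bind DNA as partners of the retinoid X receptors, at pairs of hexamers of the AGGTCA type, and CYP3A4 is the best known target of PXR. The CYP3A enzymes oxidise a large share of drugs and also steroids, and receive their electrons from POR, the cytochrome P450 oxidoreductase. FKBP5 is a co-chaperone of HSP90 that restrains the glucocorticoid receptor and is itself a target of that receptor, which in turn is known to raise PXR and CAR. TSKU is a secreted leucine-rich proteoglycan made by the liver.

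The libraries held between 2480964 and 11885877 gene reads, and the third 2.5 µM library was the shallowest. All 8 hepatocyte markers examined were present, with ALB at 10121 RPKM (exon reads divided by exon length and library size) in controls. Of 11 markers of endothelial, blood, fibroblast and bile duct cells, 8 stayed under 1 RPKM in every group, and PTPRC, CD3E and KDR had 0 reads. The exceptions were ACTA2, KRT19 and EPCAM. In bulk RNA, fewer cells of a type and less RNA per cell cannot be told apart.

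At 125 µM the receptor gene NR1I2 rose, as did POR, TSKU and FKBP5, while all 4 CYP3A genes fell. Against DMSO 8 of the 9 members had an adjusted p under 0.05 in edgeR's quasi-likelihood test, where 40.2% of all tested genes did. Of the 8, 4 were higher, where 20.3% of all genes were, and 4 were lower, where 19.9% were. At 2.5 µM 4 of the 9 passed, TSKU higher and CYP3A5, CYP3A7 and CYP3A43 lower, where 11.0% of all genes passed, 6.02% higher and 5.03% lower. Between 125 µM and 2.5 µM 5 of the 9 passed, NR1I2, POR, TSKU and FKBP5 higher and CYP3A43 lower, where 14.9% of all genes passed, 7.48% higher and 7.44% lower. The libraries of 125 µM and DMSO did not overlap in 4 members that were higher and 1 that was lower, against 25.6% and 25.2% of all tested genes (50.9% in all). For 2.5 µM and DMSO 1 higher and 3 lower members did not overlap, against 14.4% and 13.8% of all genes (28.2% in all), and for 125 µM and 2.5 µM 4 higher and 1 lower, against 16.9% and 15.9% (32.8% in all). Both comparisons with DMSO share their 3 control libraries. Without the first control library 5 of 8 testable members passed at 125 µM against DMSO, where 3575 of 12705 genes did. NR1I2, POR, TSKU and FKBP5 were higher and CYP3A43 lower. At 2.5 µM against DMSO 0 of the 8 then passed in edgeR, with 4 at an unadjusted p under 0.05. Of all genes 213 of 12705 passed in that fit. DESeq2 on all libraries called 3 of the 6 members to which it gave an adjusted p, where 1231 of 11225 genes passed.

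**Figure D1:**
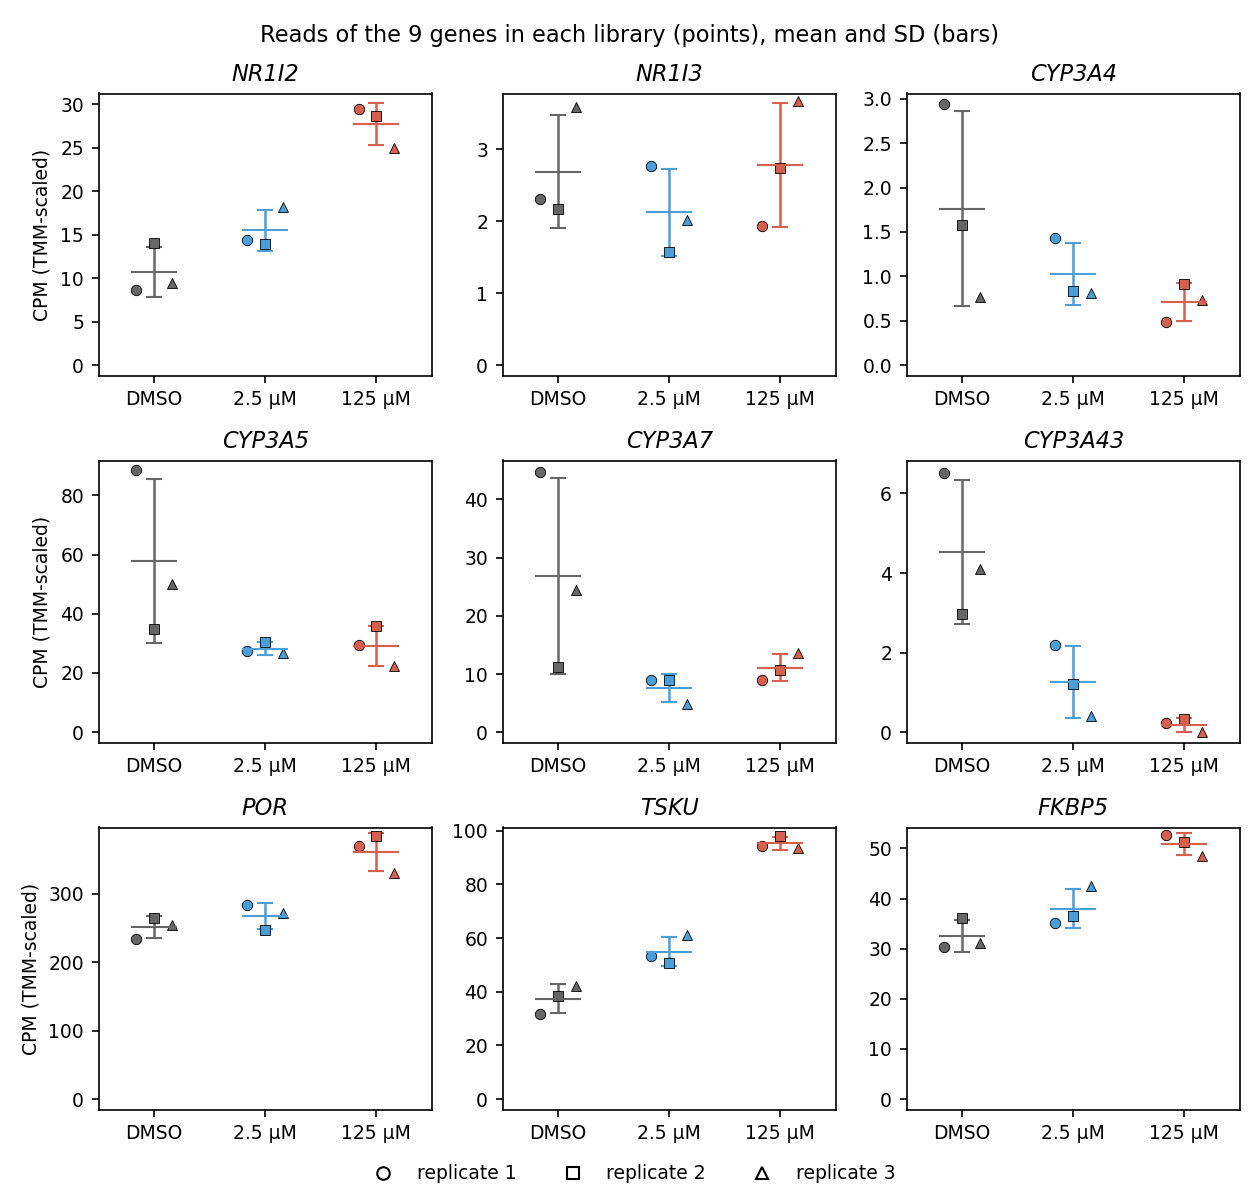
CPM (reads scaled to library size, by the TMM method) of each gene in each library, by group in order of concentration; points are libraries, the horizontal bars the mean and the whiskers the SD of 3 libraries. NR1I2, POR, TSKU and FKBP5 lie highest at 125 µM, while CYP3A5, CYP3A7 and CYP3A43 lie highest in the DMSO libraries, with the first DMSO library on top.

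NR1I2 lies on chromosome 3 from 119499331 to 119537332 (hg19, as for all gene positions here). It had 8.70, 14.0 and 9.49 CPM in DMSO libraries 1 to 3, 14.3, 13.9 and 18.2 CPM at 2.5 µM, and 29.5, 28.6 and 25.0 CPM at 125 µM. Every 125 µM library was above every library of the other groups, whereas the 2.5 µM and DMSO libraries overlapped. The receptor gene was 2.66-fold higher at 125 µM than in DMSO, at 27.7 ± 2.41 against 10.7 ± 2.89 CPM (SD, n = 3 each; adjusted p = 3.2e-05). It was also 1.88-fold higher at 125 µM than at 2.5 µM (adjusted p = 0.0018), a call that was lost with limma on RPKM (log2 fold change 0.76, adjusted p = 0.0806). At 2.5 µM the log2 fold change of 0.50 ± 0.18 (SE) did not pass (adjusted p = 0.0864), with an interval of 0.14 to 0.85. It passed without the second DMSO library (0.73, adjusted p = 0.0104). On the per-length scale NR1I2 averaged 4.34 ± 0.249 RPKM at 125 µM and 1.50 ± 0.506 RPKM in DMSO. Of its 1192 reads in all libraries, 18.5% lay in introns.

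NR1I3, the CAR gene, is on chromosome 1 from 161199456 to 161208092 and overlaps the tested gene TOMM40L, so its reads are uncertain to the extent that both share them. It had between 5 and 33 reads in a library, 157 in all, and 62.4% of these lay in introns. Its levels were 2.31, 2.18 and 3.59 CPM in DMSO, 2.77, 1.58 and 2.02 CPM at 2.5 µM, and 1.94, 2.74 and 3.67 CPM at 125 µM. The 3 groups overlapped throughout. The log2 fold change at 125 µM against DMSO was 0.0067 ± 0.34 (SE), with an interval of -0.66 to 0.67, so that a change within this interval was not detectable at this depth. At 2.5 µM against DMSO it was -0.26 ± 0.35 (adjusted p = 0.666).

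The 4 CYP3A genes stand side by side on chromosome 7, and their promoters are shown because PXR is known to act on CYP3A4 through an element of the kind marked here. Sequences are from RefSeq on build GRCh38.p14 and run 5′ to 3′ from 250 bases before to 50 bases after the transcription start. Capitals mark the best match to an everted repeat made of the hexamer TGAACT, 6 bases of any kind and the hexamer AGGTCA, searched on both strands.

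CYP3A4 (minus strand, chr7:99784135-99784434): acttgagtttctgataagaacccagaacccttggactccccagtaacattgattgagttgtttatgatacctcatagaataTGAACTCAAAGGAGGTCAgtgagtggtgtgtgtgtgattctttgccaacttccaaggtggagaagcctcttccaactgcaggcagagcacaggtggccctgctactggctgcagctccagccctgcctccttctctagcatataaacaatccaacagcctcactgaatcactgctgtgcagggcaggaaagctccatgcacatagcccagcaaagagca
CYP3A5 (minus strand, chr7:99679947-99680246): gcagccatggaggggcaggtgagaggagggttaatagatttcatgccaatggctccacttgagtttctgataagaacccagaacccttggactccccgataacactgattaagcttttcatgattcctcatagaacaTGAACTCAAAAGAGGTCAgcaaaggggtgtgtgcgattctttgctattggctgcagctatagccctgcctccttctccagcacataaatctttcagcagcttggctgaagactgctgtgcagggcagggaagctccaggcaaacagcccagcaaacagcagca
CYP3A7 (minus strand, chr7:99735147-99735446): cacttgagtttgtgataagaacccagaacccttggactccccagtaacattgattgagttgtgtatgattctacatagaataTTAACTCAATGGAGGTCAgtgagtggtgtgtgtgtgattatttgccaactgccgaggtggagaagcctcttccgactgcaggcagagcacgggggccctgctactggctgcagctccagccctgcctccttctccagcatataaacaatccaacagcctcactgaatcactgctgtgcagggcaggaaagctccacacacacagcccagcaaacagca
CYP3A43 (plus strand, chr7:99827763-99828062): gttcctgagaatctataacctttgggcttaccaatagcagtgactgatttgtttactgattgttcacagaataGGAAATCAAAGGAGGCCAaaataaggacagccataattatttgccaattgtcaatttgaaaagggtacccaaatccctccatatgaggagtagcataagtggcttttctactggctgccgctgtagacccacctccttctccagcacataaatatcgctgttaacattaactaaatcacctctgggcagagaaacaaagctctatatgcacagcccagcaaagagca

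CYP3A4 and CYP3A5 match all fixed letters of the repeat, in CYP3A4 from base -169 to -152 and in CYP3A5 from base -113 to -96 relative to the start. Of 35116 promoters of the same length in the RefSeq table, 3 hold an exact match (0.00854%), and the other is ITGB1BP2. CYP3A7, whose promoter shares 94% of its aligned bases with that of CYP3A4, differs from the repeat by G2T, counted from 1 at the repeat's 5′ end. Matches with at most 1 such difference are found in 0.131% of promoters. CYP3A43 differs by T1G, C5A and T16C, and 14.9% of all promoters come as close. The hexamer AGGTCA alone, on either strand, is in 13.8% of promoters, among them those of CYP3A4, CYP3A5 and CYP3A7 but not those listed for NR1I2, NR1I3, TSKU or FKBP5. The hexamers searched for are those of the CYP3A4 element itself, so its exact match was set in advance. The promoters of its close copies are not independent of it, so these shares of promoters test nothing. The matches describe letters only.

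CYP3A5, an enzyme with a well-known splice polymorphism (chromosome 7 of hg19, 99245817 to 99277621), had the most reads of the family, 2633 in all. It had 88.5, 35.0 and 50.0 CPM in DMSO, 27.5, 30.6 and 26.7 CPM at 2.5 µM, and 29.4, 35.8 and 22.4 CPM at 125 µM. The first DMSO library was the highest of all, all 2.5 µM libraries lay below the DMSO libraries, and the second 125 µM library lay just above the second DMSO library. CYP3A5 was 1.96-fold lower at 125 µM than in DMSO, at 29.2 ± 6.69 against 57.8 ± 27.6 CPM (SD, n = 3 each; adjusted p = 0.00622). At 2.5 µM it was 2.08-fold lower than in DMSO, at 28.3 ± 2.06 CPM (adjusted p = 0.0181). Without the first DMSO library both calls were lost, with log2 fold changes of -0.47 (adjusted p = 0.0536) at 125 µM and -0.56 (adjusted p = 0.108) at 2.5 µM. Without the third 2.5 µM library the call at 2.5 µM was also lost (adjusted p = 0.0509), with the log2 fold change at -1.03.

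CYP3A7, the main CYP3A enzyme of fetal liver (99302660 to 99332819), was also lower at both concentrations. It had 44.7, 11.3 and 24.4 CPM in DMSO, 8.99, 9.02 and 4.85 CPM at 2.5 µM, and 8.98, 10.7 and 13.6 CPM at 125 µM. Again the first DMSO library was far above the others, and the second DMSO library lay within the 125 µM range. The gene was 3.36-fold lower at 2.5 µM than in DMSO, at 7.62 ± 2.40 against 26.8 ± 16.8 CPM (adjusted p = 0.0101), and 2.64-fold lower at 125 µM, at 11.1 ± 2.32 CPM (adjusted p = 0.00554). Without the first DMSO library the log2 fold changes were -1.06 at 2.5 µM (adjusted p = 0.0679) and -0.72 at 125 µM (adjusted p = 0.0676). Between 125 µM and 2.5 µM the log2 fold change was 0.35 ± 0.39 (SE), with an interval of -0.42 to 1.12, so neither a rise nor a fall between the concentrations was shown.

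CYP3A43, a family member of low level and little known activity (99425636 to 99463718), was lower at each step of concentration. Its reads numbered 62, 15 and 16 under DMSO, then 23, 13 and 1 at 2.5 µM, then 2, 4 and 0 at 125 µM, where a count of 0 in the third library allows up to 1.12 CPM. The treated libraries all lay below the DMSO libraries in CPM. The 2.5 µM libraries lay above those at 125 µM, but this rested on 1 read (0.404 CPM) in the third 2.5 µM library against at most 0.332 CPM at 125 µM, which is under the floor of 3 reads. It was 17.4-fold lower at 125 µM than in DMSO, at 0.192 ± 0.172 against 4.52 ± 1.80 CPM (adjusted p = 6.79e-05), and 5.60-fold lower at 125 µM than at 2.5 µM (adjusted p = 0.0203). At 2.5 µM it was 3.11-fold lower than in DMSO, at 1.27 ± 0.899 CPM (adjusted p = 0.0198). At 125 µM against DMSO it passed also without the first DMSO library, at a log2 fold change of -3.67. The call at 2.5 µM against DMSO was lost without that library (-1.18, adjusted p = 0.188) and without the second or the third 2.5 µM library (adjusted p = 0.0671 and adjusted p = 0.0548). That between 125 µM and 2.5 µM was lost without the first 2.5 µM library (adjusted p = 0.116) or the first or the second 125 µM library (adjusted p = 0.0763 and adjusted p = 0.0757). Of its 136 reads 77.9% lay in introns, and 1 exon read was left at 125 µM against 17 in DMSO, all 17 from the first library. Exon reads were too few to be tested. Reads from introns of nuclear genes as a whole made up 4.91 to 5.50% of reads at 125 µM and 6.14 to 7.24% in DMSO; their part in this fall was not tested.

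CYP3A4, the main CYP3A enzyme of adult liver (99354604 to 99381888), had the fewest reads of the 9 genes, 82 in all. It was read 28, 8 and 3 times under DMSO, 15, 9 and 2 times at 2.5 µM, and 4, 11 and 2 times at 125 µM. In CPM the 125 µM libraries lay between 0.485 and 0.913, and the third DMSO library, at 0.770, was among them. Its log2 fold change at 125 µM against DMSO was -1.43 ± 0.49 (SE; adjusted p = 0.0287), and the call was lost without any one of the 125 µM libraries (adjusted p = 0.0548 to 0.129) and in DESeq2 (adjusted p = 0.144). Without the first DMSO library the gene no longer had enough reads to be tested. At 2.5 µM the log2 fold change of -0.87 ± 0.45 did not pass (adjusted p = 0.225).

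**Figure D2:**
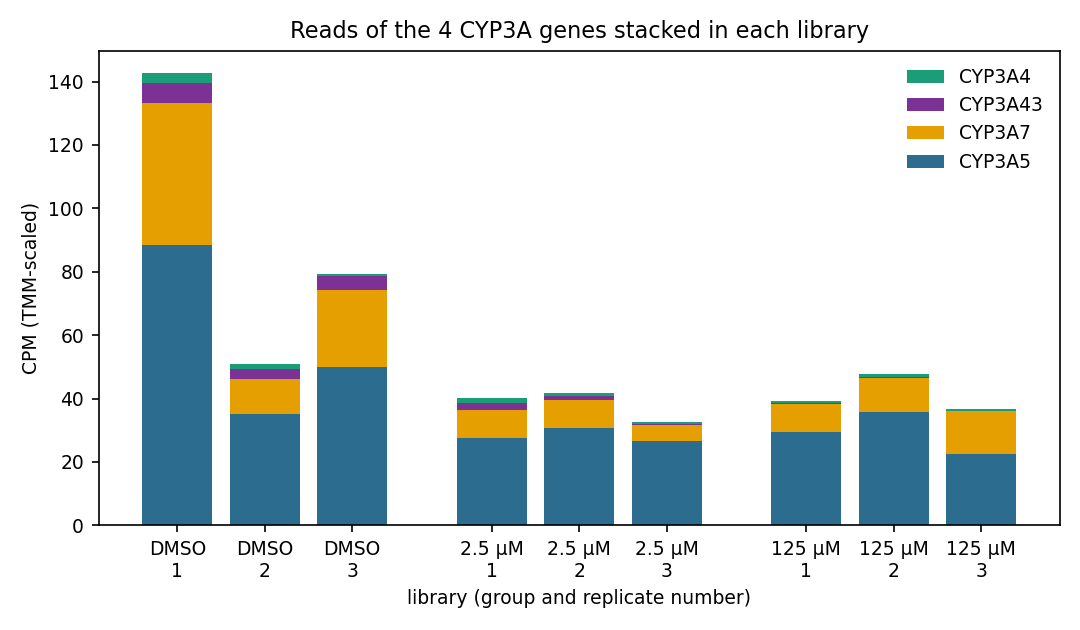
CPM of CYP3A5, CYP3A7, CYP3A43 and CYP3A4 stacked in each of the 9 libraries, grouped by concentration. The first DMSO library reaches 143 CPM, the other DMSO libraries 50.9 and 79.3 CPM, and the treated libraries 32.7 to 47.7 CPM.

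Because the CYP3A genes are close copies, the way reads were assigned was examined. In all 9 libraries the total and the unique reads of each of the 9 genes were equal, and over all features 0.00251% of gene reads were not unique. In the GENCODE v44 transcripts lifted to GRCh37, 7.36% of the 50-base words of CYP3A4 also occur in another CYP3A gene, most of them in CYP3A7, and 5.03% of those of CYP3A7, 0.733% of those of CYP3A5 and 0.256% of those of CYP3A43. Words outside these transcripts, as in most introns, were not compared, and the pairing of reads was not used. The reads of the 4 genes were therefore also added, which removes any trade between copies. The sum was 143, 50.9 and 79.3 CPM in DMSO, 40.2, 41.6 and 32.7 CPM at 2.5 µM, and 39.1, 47.7 and 36.7 CPM at 125 µM. No treated library reached the lowest DMSO library. The log2 fold change of the sum was -1.15 ± 0.26 (SE) at 125 µM against DMSO (adjusted p = 0.00276) and -1.25 ± 0.26 at 2.5 µM against DMSO (adjusted p = 0.0108). Without the first DMSO library the sum still passed, at -0.62 (adjusted p = 0.0113) and -0.72 (adjusted p = 0.0432). Between 125 µM and 2.5 µM it was 0.10 ± 0.27 (adjusted p = 0.848).

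Exon reads alone gave the same direction for CYP3A5 and CYP3A7. CYP3A5 had a large share of intron reads, 45.8% at 125 µM and 43.7% in DMSO with the reads of each group pooled. The exact Clopper-Pearson intervals of 42.1 to 49.5% and 40.9 to 46.5% cover counting error only. In single libraries the share ran from 43.9 to 54.1% at 125 µM and from 42.5 to 49.7% in DMSO. On exon reads alone the log2 fold change of CYP3A5 at 125 µM against DMSO was -1.10 (adjusted p = 0.00588) and that of CYP3A7 was -1.40 (adjusted p = 0.00474). With limma on log2(RPKM + 0.5) neither passed, at -0.81 for CYP3A5 (adjusted p = 0.0966) and -0.85 for CYP3A7 (adjusted p = 0.153), nor did the summed CYP3A reads at -0.87 (adjusted p = 0.102). Within the family CYP3A5 made up 61 to 75.2% of the CYP3A reads of the 125 µM libraries and 62.1 to 68.9% of those of the DMSO libraries. CYP3A43 made up 0.439% ± 0.382 of the CYP3A reads at 125 µM and 5.19% ± 0.639 in DMSO (SD, n = 3 each). The files also list the pseudogenes CYP3A52P and CYP3A54P, with 0 reads in every library.

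POR, also on chromosome 7 (75528518 to 75616173), is the shared electron donor of the microsomal cytochromes P450 and had the most reads of the 9 genes, 19413 in all. It had 233, 265 and 255 CPM in DMSO, 284, 247 and 271 CPM at 2.5 µM, and 369, 384 and 330.0 CPM at 125 µM. The 125 µM libraries lay above all others. POR was 1.44-fold higher at 125 µM than in DMSO, at 361 ± 27.8 against 251 ± 15.9 CPM (adjusted p = 0.000366), and 1.35-fold higher than at 2.5 µM (adjusted p = 0.00496). At 2.5 µM against DMSO the log2 fold change was 0.09 ± 0.09 (adjusted p = 0.549), with an interval of -0.08 to 0.27. POR overlaps TMEM120A by 19 bases, and 2.38% of its reads lay in introns.

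TSKU (chromosome 11, 76493295 to 76509198) was the one gene of the 9 to rise at both concentrations. It had 31.8, 38.4 and 42.3 CPM in DMSO, 53.3, 50.6 and 61.0 CPM at 2.5 µM, and 94.4, 97.9 and 93.6 CPM at 125 µM. The groups formed 3 separate ranges in order of concentration. TSKU was 2.59-fold higher at 125 µM than in DMSO (95.3 ± 2.30 against 37.5 ± 5.34 CPM, adjusted p = 1.73e-06), and by p it ranked 17th of the 12901 genes in that comparison. It was 1.47-fold higher at 2.5 µM than in DMSO, at 54.9 ± 5.41 CPM (adjusted p = 0.00983), and 1.76-fold higher at 125 µM than at 2.5 µM (adjusted p = 0.000193). The call at 2.5 µM was lost without the first DMSO library (log2 fold change 0.42, adjusted p = 0.0614) and with limma on RPKM (0.60, adjusted p = 0.0699).

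FKBP5 (chromosome 6, 35541362 to 35696360) had 30.3, 36.2 and 31.0 CPM in DMSO, 35.1, 36.5 and 42.4 CPM at 2.5 µM, and 52.7, 51.4 and 48.5 CPM at 125 µM. The 125 µM libraries were again above all others. It was 1.58-fold higher at 125 µM than in DMSO, at 50.8 ± 2.16 against 32.5 ± 3.22 CPM (adjusted p = 0.000247), and 1.37-fold higher than at 2.5 µM (adjusted p = 0.00933). The call between 125 µM and 2.5 µM was lost without the first or the second 125 µM library (adjusted p = 0.0517 and adjusted p = 0.0535). At 2.5 µM against DMSO the log2 fold change of 0.20 ± 0.11 did not pass (adjusted p = 0.239).

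**Figure D3:**
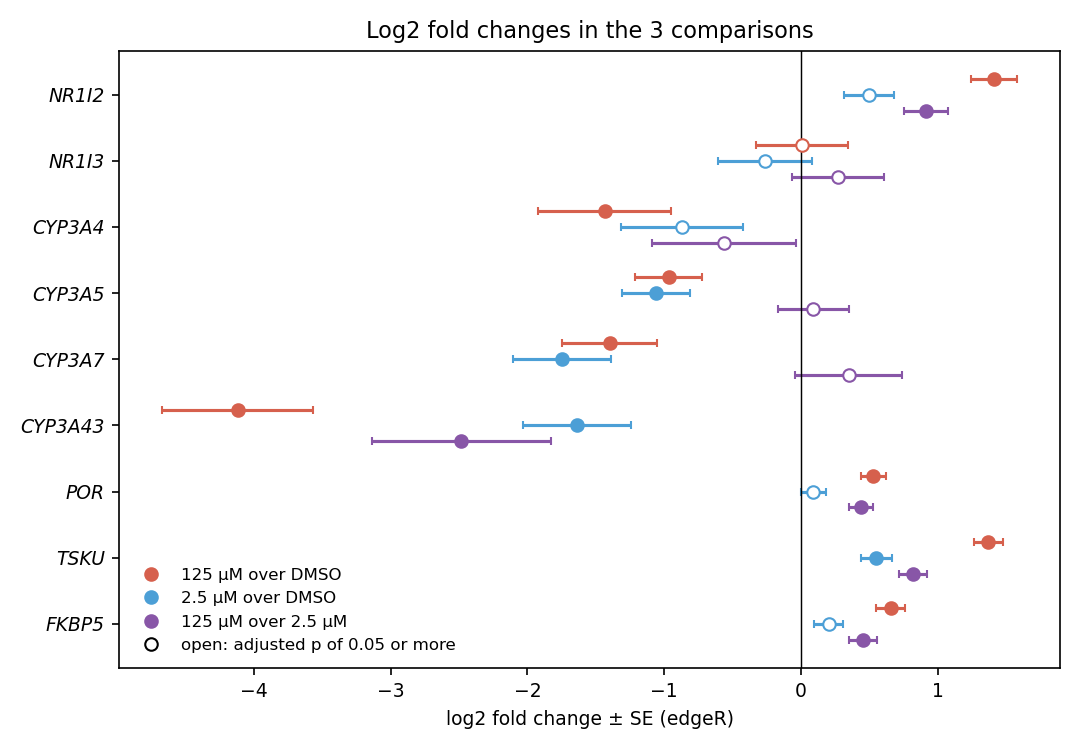
Log2 fold change with its SE for each gene in the comparisons of 125 µM with DMSO, 2.5 µM with DMSO and 125 µM with 2.5 µM; open points did not pass an adjusted p of 0.05. NR1I2, POR, TSKU and FKBP5 lie right of 0 and the CYP3A genes left of it against DMSO. Between 125 µM and 2.5 µM CYP3A5 (0.09 ± 0.26) and CYP3A7 (0.35 ± 0.39) did not pass.

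Levels per exon length set the genes in order, and this order depends on the exon length annotated for each gene. That length was 6731 bp for CYP3A5 and 3531 bp for CYP3A7, which had 685 and 473 exon reads in DMSO. In DMSO POR averaged 38.5 ± 4.02 RPKM and TSKU 7.62 ± 1.36 RPKM, followed by CYP3A7 at 5.84 ± 3.55, CYP3A5 at 4.57 ± 2.24, FKBP5 at 2.83 ± 0.393 and NR1I2 at 1.50 ± 0.506 RPKM (SD, n = 3). CYP3A4, NR1I3 and CYP3A43 were last, at 0.331 ± 0.258, 0.287 ± 0.139 and 0.210 ± 0.364 RPKM. TSKU, CYP3A7, CYP3A5 and FKBP5 are neighbours whose libraries overlap in DMSO, as are the last 3 genes. At 125 µM FKBP5 (4.69 ± 0.0861 RPKM) and NR1I2 (4.34 ± 0.249 RPKM) both stood above CYP3A7 (2.70 ± 0.573 RPKM) and CYP3A5 (2.28 ± 0.724 RPKM) in every library.

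Other genes known to respond to PXR or CAR were read from a list of 27, of which 14 could be tested. At 125 µM against DMSO 1 rose, 6 fell and 7 did not pass, with a median log2 fold change of -0.25 over the 14 and 0.0036 over all tested genes, of which 20.3% rose, 19.9% fell and 40.2% passed in all. Between 125 µM and 2.5 µM 1 rose and 3 fell, where 7.48% of all tested genes rose and 7.44% fell. The bile acid and conjugate exporter ABCC3 rose (0.79 ± 0.13 SE, 163 ± 16.2 against 94.8 ± 17.6 CPM). The retinal dehydrogenase ALDH1A1 fell (-0.77 ± 0.09), as did the reductase AKR1B10 (-0.96 ± 0.16), the microsomal epoxide hydrolase EPHX1 (-1.02 ± 0.17), the glutathione transferase GSTA1 (-1.19 ± 0.22) and the drug exporter ABCB1 (-0.40 ± 0.10). At 2.5 µM against DMSO 6.02% of all tested genes rose and 5.03% fell. Of the list EPHX1 (-0.71 ± 0.17), AKR1B10 (-0.55 ± 0.16) and ABCB1 (-0.36 ± 0.10) fell, the fatty acid transporter CD36 rose (1.32 ± 0.40), and 10 did not pass. The AKR1B10 libraries of 2.5 µM and DMSO overlapped. CD36 was low, at 5.62 ± 2.13 against 2.08 ± 1.63 CPM in DMSO, and did not pass at 125 µM (adjusted p = 0.0808). GSTA1 is a close copy of GSTA2 and so uncertain, and 18.8% of the ABCC3 reads lay in introns. CYP2B6, the best known CAR target, had 3 reads in all 9 libraries, CYP2C8 had 12, and CYP2A6 had 0. The UGT1A genes share exons and had at most 22 reads each.

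Of 14 partners and co-regulators of the receptors 13 could be tested. At 125 µM against DMSO 2 rose and 1 fell (median log2 fold change -0.11), where 20.3% of all tested genes rose and 19.9% fell. The coactivator PPARGC1A rose (0.72 ± 0.08, 84.1 ± 0.736 against 51.2 ± 1.71 CPM), and the dimer partner RXRA fell (-0.23 ± 0.09). The RXRA libraries of 125 µM and DMSO overlapped. At 2.5 µM against DMSO, where 11.0% of all tested genes passed, the Mediator subunit MED1 fell (-0.44 ± 0.11) and 12 did not pass. Of 14 transcription factors known to act on CYP3A genes 12 could be tested, and at 125 µM against DMSO 1 rose and 5 fell (median -0.25), beside 20.3% higher and 19.9% lower of all tested genes. CEBPB rose (0.65 ± 0.12), while ONECUT1 (-0.93 ± 0.22), FOXA1 (-0.36 ± 0.09), DBP (-1.33 ± 0.35), USF1 (-0.50 ± 0.15) and HLF (-0.27 ± 0.08) fell. At 2.5 µM against DMSO 0 of the 12 passed in edgeR, with 4 at an unadjusted p under 0.05, and 0 passed in DESeq2. The hepatocyte regulator HNF4A (0.10 at 125 µM, adjusted p = 0.378) did not pass. Without the first DMSO library 1 of the 13 partners (1 higher) and 4 of the 12 factors (1 higher, 3 lower) passed at 125 µM. Of all genes 3575 of 12705 did so. DESeq2 called 1 of the 13 partners (1 higher) at 125 µM, where 4106 of 14878 genes passed.

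Of 15 electron partners and other users of POR 12 could be tested, and at 125 µM against DMSO 4 rose and 4 fell (median 0.12), where 20.3% of all tested genes rose and 19.9% fell. The cytochrome CYP2S1 rose (2.64 ± 0.22), with the haem oxygenase HMOX1 (1.17 ± 0.16) and the electron carrier CYB5A (0.49 ± 0.10), while the vitamin D hydroxylase CYP2R1 (-1.30 ± 0.21, 75.4% of its reads in introns), CYP1A1 (-1.65 ± 0.35) and the haem-binding protein PGRMC1 (-0.46 ± 0.11) fell. At 2.5 µM, where 6.02% of all tested genes rose and 5.03% fell, HMOX1 (0.85 ± 0.17) and CYP2S1 (0.82 ± 0.25) rose and CYP1A1 fell (-1.27 ± 0.34). Of 20 genes of the glucocorticoid receptor axis 17 could be tested, and at 125 µM against DMSO 5 rose and 5 fell (median -0.12), against the same 20.3% and 19.9% of all genes. The metallothionein MT2A, which has close copies, rose (2.23 ± 0.19, 166 ± 45.5 against 36.3 ± 6.86 CPM), with the EGF receptor inhibitor ERRFI1 (0.87 ± 0.11) and the lipase inhibitor ANGPTL4 (0.98 ± 0.16). The kinase SGK1 fell (-1.66 ± 0.14, 16.2 ± 4.58 against 54.5 ± 3.22 CPM), with the clock gene PER1 (10.3 ± 0.234 against 20.5 ± 3.02 CPM) and the transcription factor KLF9 (-0.76 ± 0.13). All 6 are known as targets that the glucocorticoid receptor induces, as is FKBP5. At 2.5 µM ERRFI1 (0.52 ± 0.11) and MT2A (0.66 ± 0.19) rose and 15 did not pass. Without the first DMSO library 0 genes of the 5 lists passed at 2.5 µM against DMSO in edgeR, with 2 to 5 of each list at an unadjusted p under 0.05. Of all genes 213 of 12705 passed in that fit. DESeq2 on all libraries called 4, 1, 0, 2 and 2 of the 5 lists at 2.5 µM, in the order in which they are given. Of all genes it called 1231 of 11225.

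**Figure D4:**
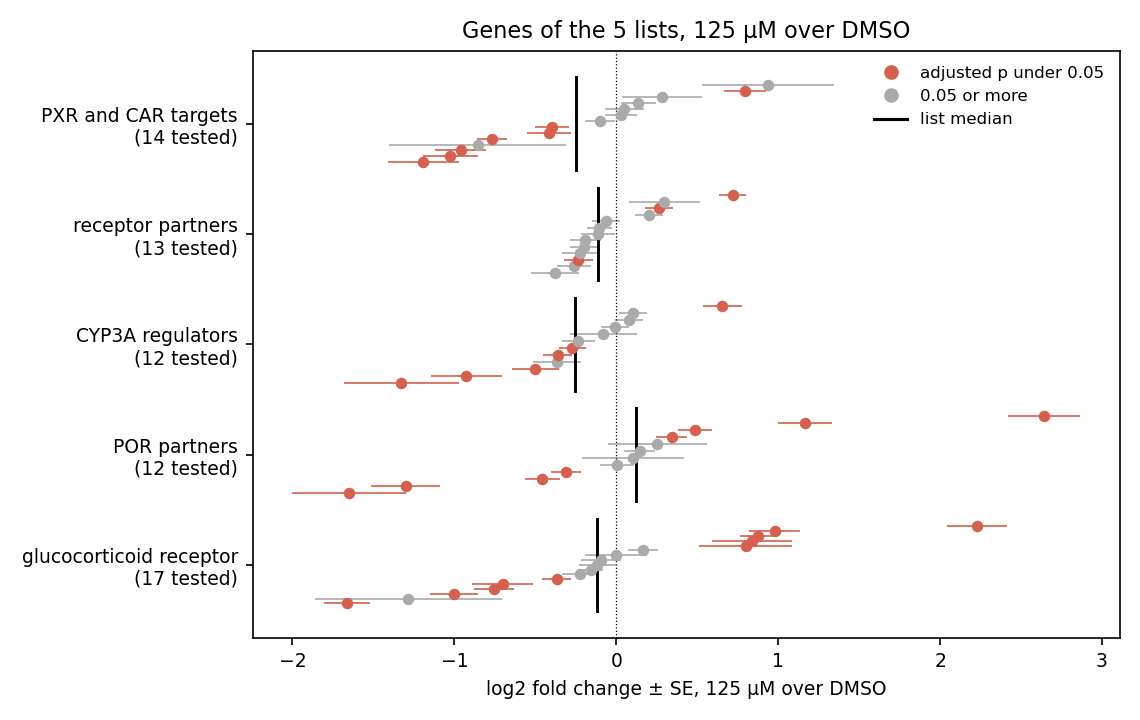
Log2 fold change with its SE at 125 µM against DMSO for every tested gene of the 5 lists; red points passed an adjusted p of 0.05 and the black line is the list's median. Members of each list lie on both sides of 0, with CYP2S1 at 2.64 and MT2A at 2.23 farthest right and SGK1 at -1.66 farthest left.

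General liver markers changed at both concentrations, in both directions at 2.5 µM. Of the 8 hepatocyte markers 6 fell at 125 µM against DMSO (5 without the first DMSO library), where 19.9% of all tested genes fell. The other 2, APOA1 and TTR, did not pass. The summed level of the 8 was 8400.3 RPKM at 125 µM against 15933 RPKM in DMSO. ALB made up most of this sum, with 4272 RPKM at 125 µM against 10121 RPKM in DMSO, while APOA1 had 489.8 RPKM at 125 µM against 489.0 RPKM in DMSO. At 2.5 µM AFP and APOB fell and TTR rose (0.47 ± 0.09, adjusted p = 0.00825), where 5.03% of all tested genes fell and 6.02% rose. So 2 markers fell and 1 rose (0 and 1 without the first DMSO library, 4 and 2 in DESeq2), with a sum of 12690.1 RPKM. The part of these marker changes in the CYP3A values was not tested. Of the bile duct markers KRT19 rose, with 91.3 RPKM at 125 µM against 30.3 RPKM in DMSO, EPCAM had 62.4 RPKM at 125 µM against 66.7 RPKM in DMSO (log2 fold change -0.16, adjusted p = 0.146), and KRT7 had 4 reads in all. The endothelial markers summed to at most 0.184 RPKM and those of blood cells to at most 0.293 RPKM in any group.

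Genes whose pattern over the 9 libraries was most like that of a member are given as a description. All points share libraries, depth and groups. NR1I2 and FKBP5 were each among the 3 genes nearest to the other (Pearson r = 0.99 of log2 CPM, n = 9 libraries). The others nearest to NR1I2 were DOPEY2 and SRBD1, and to FKBP5 MTHFD1L and B3GNT3. Nearest to TSKU were TMC7, the actin gene ACTB and the integrin gene ITGB5, and to POR RGS3, CARD10 and MLXIP. Nearest to CYP3A5 were CHD9 and CHMP4B, to CYP3A7 OTUD7B, RALB and ZKSCAN1, to CYP3A43 CYP21A2, DIDO1 and RP11-196G18.22, and to CYP3A4 SSBP4, ABCA5 and MTFR1L. The value of r was between 0.933 and 0.998 for all of these. The log2 fold changes at 125 µM against DMSO of the gene nearest to each of NR1I2, POR, TSKU, CYP3A5, CYP3A7 and CYP3A43 were 1.53 for DOPEY2, 0.99 for RGS3, 1.53 for TMC7, -0.36 for CHD9, -0.34 for OTUD7B and -2.17 for CYP21A2, which has a close pseudogene copy.

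**Figure D5:**
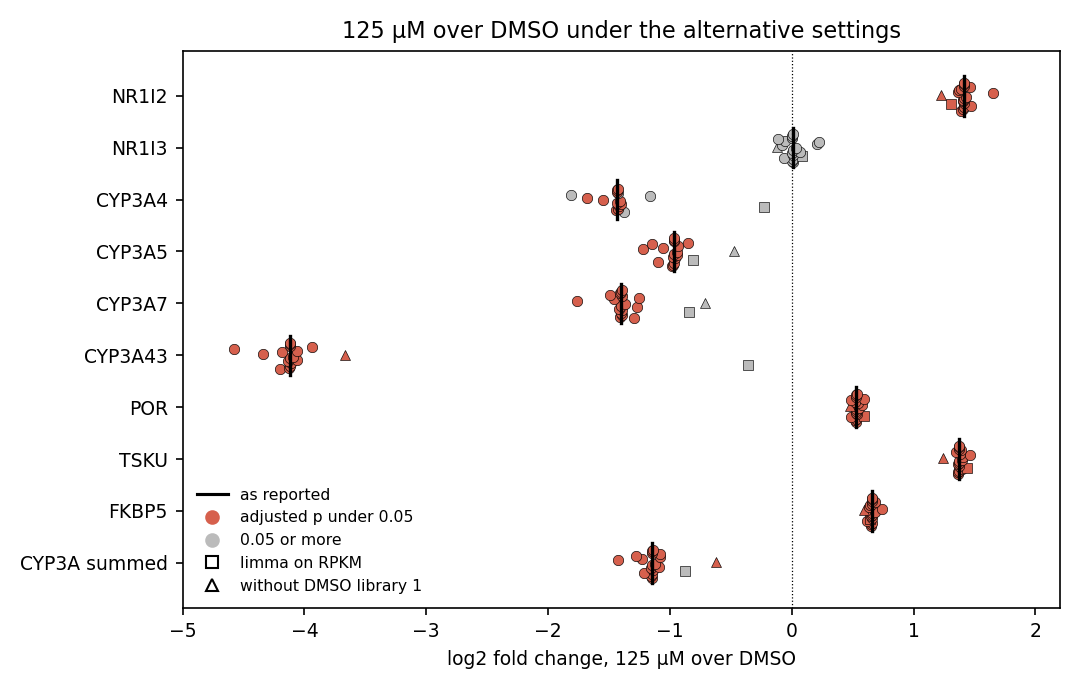
Log2 fold change at 125 µM against DMSO of each gene and of the summed CYP3A reads under the alternative settings; black lines are the reported values, red points passed an adjusted p of 0.05, grey points did not, squares are limma on RPKM and triangles leave out the first DMSO library. NR1I2, POR, TSKU and FKBP5 are red throughout, whereas CYP3A5 at -0.47 and CYP3A7 at -0.72 turn grey without that library and all CYP3A values are grey on RPKM.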

How the data were processed

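RNA from 9 HepG2 cultures, 3 per group, was sequenced as paired reads of 50 bp from TruSeq Stranded mRNA libraries, per the labels' protocols. Alignment to hg19 and assignment to genes were done by the authors in CLC Genomics Workbench, as the design text of the series states. The version of that program, and whether strand was used, is not given in the sources used here. Per the file headers, the authors deposited whole-number counts of total, unique, exon and intron reads for each gene, without normalisation. They also deposited RPKM, exon reads divided by exon length and library size, per the file headers.

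Total gene reads were filtered with filterByExpr, scaled by TMM and fitted in edgeR 4.0.16 (R 4.3.3) over all 9 libraries in 3 groups with no covariate. Each comparison was two-sided, with Benjamini-Hochberg adjustment over 12901 genes and a threshold of 0.05. Intervals of a log2 fold change are nominal 95% intervals from its SE and the normal distribution. With so few libraries they are somewhat too narrow. Intervals on counts cover counting error only. The fit was tested on simulated counts, with the same spread for every gene and changes set only in well-read genes. That test does not bear on genes with few reads or a wide spread, such as the CYP3A genes. A floor of 3 reads is 0.252 to 1.21 CPM. Starts are those of the files plus 1. Promoters were searched and aligned with Biopython 1.88.

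The genes and lists were chosen with earlier results of these data known. The rule for names took all 9 genes, with up to 6 passing genes of each list and the nearest patterns; HNF4A, APOA1, TTR, CYP2B6, CYP2C8 and CYP2A6 were named after their values were seen. A few genes that the rule takes are left out here. Alternatives were unique reads, exon reads, DESeq2 1.42.0 (size factors and Wald test), upper-quartile scaling, other filters, a replicate block, 2 groups only, limma 3.58.1 on log2(RPKM + 0.5), which understates changes of low genes, and leaving out each library. For the lists DESeq2 and leaving out the first DMSO library were added after seeing the data. Libraries of a group differed beyond sampling noise, with a chi-square per degree of freedom of 2.39 to 11.7.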

Additional observations from a re-analysis of the deposited data

How the results depend on the processing

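At 125 µM against DMSO the number of the 9 genes that passed was 8, and 5 to 8 with 1 library left out. With limma on RPKM it was 4, and at 2.5 µM against DMSO it was 0 of 9 (4 at an unadjusted p under 0.05). At 2.5 µM edgeR called 4 of 9 and DESeq2 3 of 6, as DESeq2 gave NR1I3, CYP3A4 and CYP3A43 no adjusted p there. The number at 2.5 µM ranged from 0 to 5 with 1 library left out. It was 0 without the first DMSO library (4 at an unadjusted p under 0.05) and 2 without the third 2.5 µM library. Between 125 µM and 2.5 µM it was 5, 3 with limma on RPKM and 3 to 5 with 1 library left out, 3 without the first or the second 125 µM library. The summed CYP3A reads missed the threshold with limma on RPKM, at -0.87 (adjusted p = 0.102) and -1.12 (adjusted p = 0.113), and their value between 125 µM and 2.5 µM ranged from -0.037 to 0.16 with 1 library left out. Of the values for the 9 genes and the summed CYP3A reads, signs turned for that one and for 3 others, all of which missed the threshold under each alternative tried: NR1I3 at 125 µM (-0.065 on exon reads, -0.00071 with DESeq2 size factors, -0.00021 with 2 groups, -0.12 to 0.22 with 1 library left out), and, between 125 µM and 2.5 µM, CYP3A4 (0.056 on RPKM) and CYP3A5 (-0.041 on RPKM, -0.098 to 0.20 with 1 library left out). The causes were not tested. Over all genes, 1425 passed at 2.5 µM against DMSO, beside 213 without the first DMSO library (174 of them higher, against 776 of the 1425), 468 without the third 2.5 µM library, 707 without the third DMSO library, 731 with 2 groups and 216 on RPKM. Between 125 µM and 2.5 µM it was 1925, beside 799 to 1252 without 1 of the 125 µM libraries, 1015 without the second 2.5 µM library and 968 on RPKM. On RPKM, pseudocount 0.5, the log2 fold change of CYP3A43 at 125 µM was -0.36. Replicate numbers paired libraries only by number: correlations of same-numbered libraries ran from -0.24 to 0.18, and the replicate block left 8, 4 and 5 genes passing in the 3 comparisons. Depth limits NR1I3, CYP3A4 and CYP3A43 most, with 157, 82 and 136 reads in all.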
